A study of Rattus norvegicus with 12 samples.

Results

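Cell adhesion genes were compared between control and acetamiprid (ACE) cultures of neonatal rat cerebellum by microarray: the cadherins, the protocadherins, and the contactins, contactin-associated proteins, neurexins, neuroligins, leucine-rich repeat transmembrane proteins (LRRTMs), L1 family proteins and neural cell adhesion molecules (NCAMs). They were chosen by gene name on the array, which gave 99 of 26214 gene names and 126 of 30367 probes. Of the 126 probes, 113 (89 genes) had enough signal to be tested and 13 did not.

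The cells came from the cerebellum of 1-day-old Sprague-Dawley rats and were grown as neuron-enriched cultures, in medium with 1% serum up to day 8 and in serum-free medium thereafter. The control group (n = 6) received the solvent dimethyl sulfoxide at 0.001% only. The ACE group (n = 6) received 1 µM ACE, a neonicotinoid insecticide, in the same amount of solvent from 2 to 16 days in vitro (DIV), when RNA was taken. Each replicate number stood for 1 culture experiment on the pooled neonates of a single litter, so the 6 control and 6 ACE arrays formed 6 pairs and every comparison (control versus ACE, CvA) was made within pairs.

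Cadherins are calcium-dependent adhesion proteins that mostly bind their own kind on the neighbouring cell and attach to the actin cytoskeleton through catenins. The clustered protocadherins lie in alpha, beta and gamma gene clusters. In the alpha and gamma clusters each variable exon has its own promoter and is spliced to a set of shared exons, and the combination of variable exons used gives a neuron its surface identity, which lets a Purkinje cell dendrite avoid its own branches. Neurexins on the axon bind neuroligins and LRRTMs on the dendrite and organise synapses, while contactins, the L1 family and the NCAMs guide axons and build contacts between axon and glia.

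The labelled tissue carried its markers. Of 7 probes for neuronal markers, 6 were well above background on all 12 arrays, as were 6 of 7 for granule cells and 8 of 8 for Purkinje cells. Glial cells were present too, with 13 of 13 astrocyte, 14 of 14 oligodendrocyte lineage and 10 of 10 microglial probes well above background on every array. Markers of skeletal muscle differed strongly between libraries: their mean log2 signal over 14 genes ran from 6.85 to 11.04 in control and from 6.70 to 9.77 in ACE, and it was highest in control replicates 1, 2 and 6 and in ACE replicate 1. A level of RNA in such a mixed culture cannot tell fewer cells of a type from less RNA per cell.

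No adhesion probe passed the adjusted threshold of 0.05 (0 of 113; all probes 0 of 23796, 0.0%), the lowest adjusted limma p among them being 0.143. Without adjustment, 27 of the 113 probes had a limma p below 0.05 (23.9%), against a background of 3956 of 23796 probes on the whole array (16.6%). Of these, 19 were higher in ACE (16.8%, background 6.9%) and 8 lower (7.08%, background 9.73%). Calls were also counted by mean signal, higher then lower. They were 1 and 0 of 8 members up to 4 log2, and 3 and 0 of 12 from there to 5. From 5 to 6 they were 4 and 0 of 14, and from 6 to 7 they were 7 and 1 of 25. From 7 to 8 they were 0 and 3 of 13, and from 8 to 10 they were 2 and 2 of 19. From 10 to 12 they were 1 and 0 of 13, and above 12 they were 1 and 2 of 9. Over all probes, 4.33% to 9.31% were higher and 5.74% to 11.2% lower in these ranges. The same direction in all 6 pairs, which is what an exact signed-rank p under 0.05 requires here, was found for 15 probes (13.3%, background 11.6%), 9 of them higher (background 4.72%) and 6 lower (background 6.86%). The verbs below refer to the unadjusted threshold only, and no change named here holds after adjustment over the array.

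The differences were small. The median over the 89 genes was 0.037 log2, against -0.0063 log2 over all 20504 genes tested, and the median size was 0.080 log2 over the member probes and 0.062 log2 over all probes. A mean change of 1.5-fold was reached by 1 probe, for Cdh16, which was lower (background 1.72%, of which 0.664% higher and 1.06% lower). The ranges of the control and ACE arrays overlapped for all 113 probes (groups without overlap, background 0.0126%).

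The direction of this split depended on the scaling. When each array was only shifted to a common 75th percentile in place of quantile normalisation, 14 members were past the unadjusted threshold (12.4%, all probes 17.7%), 3 higher and 11 lower (background 3.39% and 14.3%), and the median over the member genes turned to -0.025 log2. That shift moved the median of all tested probes to -0.034 log2. It was -0.148 log2 for all probes with a mean signal up to 4 log2 and -0.0127 log2 for those above 12 log2. With a normexp background correction, 15 members were higher and 10 lower (background 7.34% and 10.7%). Restricted to pairs 3 to 5, in which neither array had high muscle markers, 8 members were past the threshold (7.08%, all probes 6.77%), 4 higher and 4 lower. With the trend and robust settings of eBayes, 20 members passed, or 17.7%, which is also the share of all probes (17.7%).

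**Figure D1:**
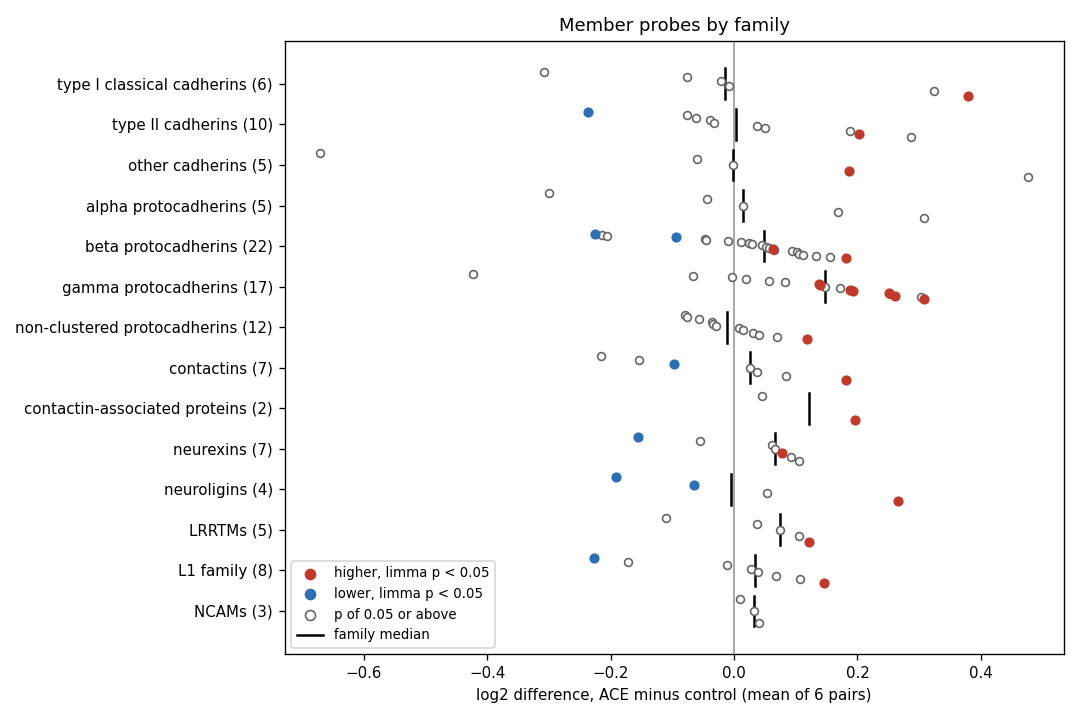
Mean log2 difference (ACE minus control, 6 pairs) of each of the 113 tested probes, by family with the number of probes in brackets and filled points were past an unadjusted limma p of 0.05 and the black line is the family median. The gamma protocadherins have 7 filled points, all on the positive side, and the family median farthest from 0.

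The gamma protocadherins were the family with the most calls in 1 direction: 7 of 17 tested probes (41.2%, background for higher 6.9%) rose in ACE and none (0) fell. They are encoded on the plus strand of chromosome 18 (rn4 assembly). Of 18 gamma probes, 16 lie within 105.3 kb in the row of variable exons, 1 of which (Pcdhga8) was not tested, and 2 lie farther downstream. The first of these 2 begins 75908 bases beyond the last variable-exon probe. The accessions listed for the latter 2 include transcripts of other gamma genes, and they are taken here as shared exons. The division into variable and shared exons was made after the values were seen. Of the cell type marker lists, microglia had 3 of 10 probes higher and 1 lower at the unadjusted threshold (median 0.0961 log2, mean signal higher in ACE in 3 of 6 pairs), the oligodendrocyte lineage 2 of 14 higher and 1 lower (median 0.0235 log2, 3 of 6 pairs), Purkinje cells 1 of 8 lower (median 0.0259 log2, 3 of 6 pairs), neurons 1 of 7 higher (median 0.111 log2, 5 of 6 pairs), inhibitory interneurons 1 of 8 higher (median 0.173 log2, 4 of 6 pairs) and astrocytes 1 of 13 lower (median -0.07 log2, 0 of 6 pairs higher). Skeletal muscle had 3 of 13 tested probes lower and 0 higher (median -1.12 log2, 0 of 6 pairs higher). Granule cells had 0 of 7 past the threshold (median -0.0209 log2, 2 of 6 pairs). Meningeal fibroblasts had 0 of 6 (0.0177 log2, 2 of 6 pairs) and epithelial cells 0 of 4 (0.0145 log2, 4 of 6 pairs). Over all probes, 6.9% were higher and 9.73% lower. The part of these cell types in the gamma result was not tested.

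The 60-base sequences of the 7 probes that rose are given because they show which variable exon each one reads and how far it could be taken for a neighbour. Capitals mark the longest run that a probe shares with any other gamma variable-exon probe.
Pcdhga3 (rn4 chr18:30582821-30582880): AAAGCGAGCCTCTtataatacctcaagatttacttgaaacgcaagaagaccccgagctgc
Pcdhgb2 (rn4 chr18:30598832-30598891): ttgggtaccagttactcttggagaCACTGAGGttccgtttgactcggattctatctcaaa
Pcdhgb5 (rn4 chr18:30642616-30642675): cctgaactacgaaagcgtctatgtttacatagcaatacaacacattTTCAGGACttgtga
Pcdhga10 (rn4 chr18:30658319-30658378): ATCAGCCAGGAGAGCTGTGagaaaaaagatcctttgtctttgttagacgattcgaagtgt
Pcdhgb7 (rn4 chr18:30662750-30662809): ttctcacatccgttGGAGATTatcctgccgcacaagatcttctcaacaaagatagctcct
Pcdhga11 (rn4 chr18:30666986-30667045): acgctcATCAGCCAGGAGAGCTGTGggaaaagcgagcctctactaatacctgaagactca
Pcdhgb8 (rn4 chr18:30672005-30672064): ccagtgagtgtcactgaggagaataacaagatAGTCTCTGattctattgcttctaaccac
Over the 120 pairs of the 16 variable-exon probes, the best ungapped match had a median of 21 identical bases of 60. The closest pair was Pcdhga7 and Pcdhga8 with 45 identical bases and a shared run of 20. Pcdhga10 and Pcdhga11 shared a run of 19 bases, the longest run among the 7. Cross-hybridisation between the probes was not tested.

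Pcdhga10 had the largest rise of the 7. Its log2 signal ran from 3.28 to 4.95 in control (median 4.26) and from 3.84 to 5.06 in ACE (median 4.60). The groups overlapped, but the ACE array was the higher one in 6 of 6 pairs, by 0.11 to 0.56. The difference was 0.31 ± 0.07 log2 (SE), or 1.24-fold, with a limma p of 0.00363 that became 0.156 after adjustment. The probe was dim, being well above background on 3 control and 4 ACE arrays.

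Pcdhgb8 lay between 4.47 and 5.62 (median 4.81) in control and between 4.88 and 5.85 (median 5.12) in ACE. It too was higher in every pair, with a difference of 0.25 ± 0.06 log2 (limma p 0.00502, adjusted 0.167). For Pcdhgb7 the control arrays spanned 4.99 to 6.08 (median 5.25) and the ACE arrays 5.25 to 5.99 (median 5.61). Pair 3 went the other way (-0.08 log2) and the other 5 pairs rose by 0.19 to 0.51, so the mean was 0.26 ± 0.08 log2 (limma p 0.0133, adjusted 0.204). With normexp Pcdhgb7 missed the threshold (0.0949 log2, limma p 0.0846), as did the Pcdhgb5 probe A_64_P040288 (0.0618 log2, limma p 0.0728).

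The remaining 4 rose by less. Pcdhgb2, between 6.23 and 7.12 (median 6.79) in control and 6.33 and 7.24 (median 6.89) in ACE, was higher in 6 of 6 pairs by a mean of 0.14 ± 0.04 log2 (adjusted limma p 0.214), a call lost without replicate 2 (limma p 0.0501). Pcdhga3 (0.19 ± 0.06, adjusted limma p 0.208), the Pcdhgb5 probe A_64_P040288 (0.19 ± 0.06, adjusted 0.228) and Pcdhga11 (0.14 ± 0.05, adjusted 0.26) were higher in 5 of 6 pairs each. The other Pcdhgb5 probe, A_64_P028476, gave 0.06 ± 0.03 log2 and did not pass.

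Over all 15 tested variable-exon probes, 14 had a positive difference and the median was 0.172 log2. By pair, the median over the variable-exon genes was 0.25, 0.19, 0.03, 0.37, 0.11 and 0.05 log2 in pairs 1 to 6, so pairs 1, 2 and 4 carried most of it. The exception in sign was Pcdhga2 (-0.42 ± 0.44 log2), whose pair differences ran from -2.43 to 1.13. The probe in the shared exons listed as Pcdhga7, whose accessions name transcripts of 4 gamma genes, lay between 15.13 and 15.47 in control and 14.99 and 15.50 in ACE and differed by -0.07 ± 0.03 log2 (limma p 0.0993). The one listed as Pcdhgc5 was at 10.37 to 10.91 and 10.33 to 11.15, with a difference of -0.0026 ± 0.05 log2 (limma p 0.96). The mean of the Pcdhgc5 probe turned positive with normexp (0.0341 log2) and with the deposited values (0.0118 log2). The difference between the variable and the shared exons was not tested.

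**Figure D2:**
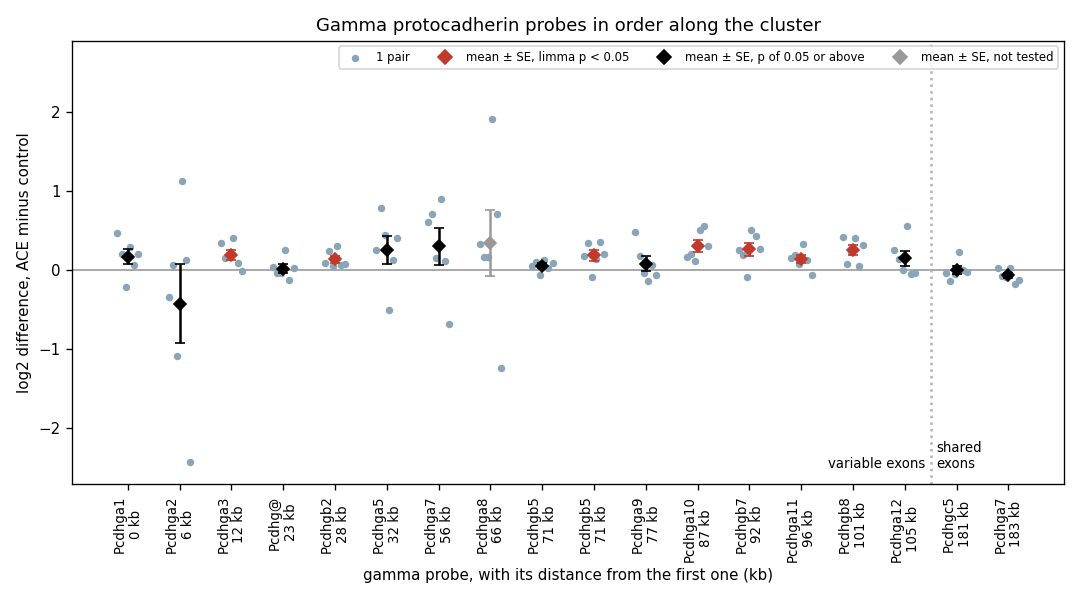
Log2 differences (ACE minus control) of the 18 gamma probes in their order along the cluster, each with its distance in kb from the first; small points are the 6 pairs and diamonds the mean ± the plain SE over pairs (the SEs in the text are limma's moderated ones). The grey diamond was not tested. The 7 red diamonds lie between 0.14 and 0.31 log2, and the 2 probes right of the dotted line lie at -0.0026 and -0.07 log2.

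The calls of the gamma variable exons changed with the scaling. With the 75th percentile shift 0 of the 15 probes were past the unadjusted threshold in either direction, 11 were positive and their median was 0.064 log2, beside a median of -0.093 log2 over all 6195 probes in the same range of signal (3.92 to 6.94 log2). Of those 6195 probes, 29.2% were positive, and 1.78% were higher and 19% lower at the unadjusted threshold. On the quantile scale these medians were 0.172 and 0.0076 log2. With normexp, 5 of the 15 were past the threshold (6.63% of all probes in that range were higher), 14 were positive and the medians were 0.062 and 0.0007 log2. In the main scaling 8.47% of all probes in that range of signal were higher at the unadjusted threshold. Restricted to pairs 3 to 5, 1 of the 15 was past it and the median was 0.143 log2, and without replicate 2 the count was 4.

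**Figure D3:**
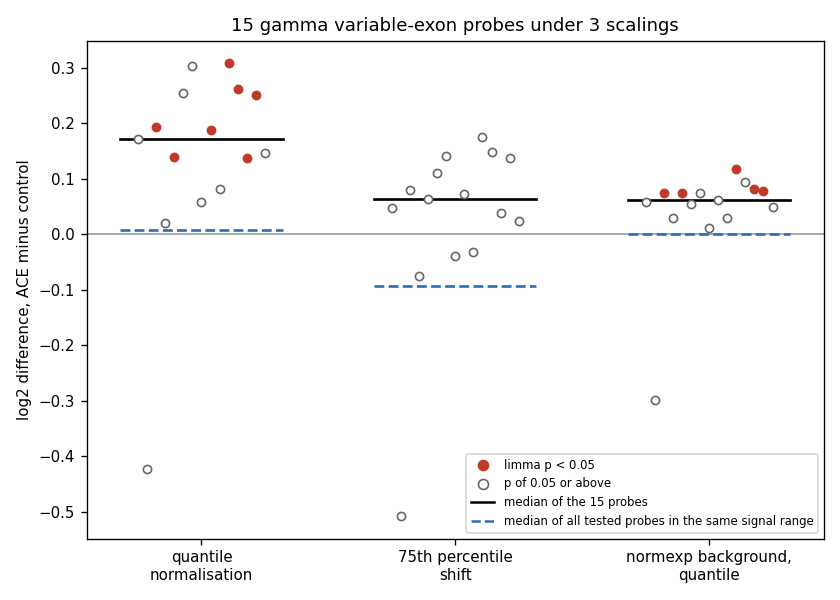
Log2 difference (ACE minus control) of the 15 tested gamma variable-exon probes under quantile normalisation, a 75th percentile shift and normexp background correction; red points were past an unadjusted limma p of 0.05, the black line is their median and the dashed line the median of all 6195 tested probes in the same signal range. The number of red points is 7, 0 and 5, and the black line is above the dashed line in all 3 columns.

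Many promoters of the gamma genes hold a common sequence element. The element GCGNCGCT, read on either strand, was found in 9 of 15 RefSeq gamma promoters (GRCr8 assembly, 250 bases before to 50 after the start), in 0 of 19 beta promoters and in 1482 of all 33469 promoters (4.43%). Its last letters, CGCT, belong to the conserved element of protocadherin promoters, but CGCT alone is common (60.9% of all promoters, 73.3% of the gamma and 84.2% of the beta ones). The longer pattern was settled on after others had been looked at, and where both strands match at 1 place the matches overlap. Among the 4 genes that rose and have a promoter in the table, Pcdhga10, Pcdhga11 and Pcdhgb8 held the element and Pcdhga3 did not. It was also held by 4 tested genes that did not pass, Pcdhga2, Pcdhga5, Pcdhga9 and Pcdhga12. The 3 stretches are given to show the element where it was found, 5′ to 3′ on the plus strand. Capitals mark the element itself in Pcdhga11 and Pcdhgb8 and its reverse complement in Pcdhga10, where both strands match in overlapping positions.
Pcdhga10 (GRCr8 chr18:29825804-29825851): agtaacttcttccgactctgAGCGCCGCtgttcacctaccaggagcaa
Pcdhga11 (GRCr8 chr18:29834465-29834512): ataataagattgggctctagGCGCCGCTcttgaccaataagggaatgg
Pcdhgb8 (GRCr8 chr18:29839487-29839534): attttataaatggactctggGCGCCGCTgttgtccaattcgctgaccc
The capitals begin 102, 121 and 53 bases before the start in this order. A match describes the letters only.

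The alpha and beta clusters did not move as 1 group. Of 5 alpha probes 0 were past the threshold, and the probe for the shared alpha exons (Pcdhac2, with accessions of several alpha transcripts) differed by 0.01 ± 0.03 log2. Among 22 tested beta probes, whose genes are single exons, 2 rose and 2 fell (9.09% each, background 6.9% and 9.73%), with a median of 0.048 log2. The largest fall was that of Pcdhb10, from a median of 9.33 (range 9.05 to 10.61) in control to 8.97 (8.85 to 10.58) in ACE. It fell by 0.23 ± 0.07 log2, in 6 of 6 pairs (adjusted limma p 0.229), with -0.58 in pair 5 and -0.03 in pair 1, and missed the threshold without replicate 4 (limma p 0.0543). Pcdhb18 also fell (difference -0.09 ± 0.03 log2). Pcdhb20, higher in 6 of 6 pairs by no more than 0.12 (0.06 ± 0.03 log2), turned to -0.012 log2 with the 75th percentile shift and missed the threshold when any replicate but 3 was left out. The rise of Pcdhb2 (0.18 ± 0.06 log2) came from a probe that was well above background on 2 control and 2 ACE arrays.

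Of the non-clustered protocadherins, which sit on single genes and several of which steer axon growth, 1 of 12 tested probes rose and 0 fell. These shares were 8.33% and 0.0% (background 6.9% and 9.73%). The rise was that of Pcdh10, a receptor that links adhesion to the actin-regulating WAVE complex. It ran from 11.18 to 11.88 in control (median 11.28) and 11.33 to 11.88 in ACE (median 11.41), a difference of 0.12 ± 0.03 log2 (limma p 0.0124, adjusted 0.2) with pair 3 at -0.01. Values for Pcdh17 were 0.07 ± 0.04 log2 by A_44_P684740 and -0.08 by A_64_P054606. Pcdh19, the gene of a female-limited epilepsy in people, differed by 0.04 ± 0.03 and Pcdh9 by -0.04 ± 0.05 log2, neither past the threshold.

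Among the type II cadherins, 1 of 10 tested probes fell and 1 rose (10.0% each, background 9.73% and 6.9%). Cdh5 (VE-cadherin, the adhesion protein of endothelial junctions; rn4 chromosome 19, 779665 to 779724, minus strand) had the lowest limma p of all members, 0.000814, or 0.143 after adjustment. In control it ran from 6.77 to 8.88 log2 with a median of 7.35, and in ACE from 6.63 to 8.72 with a median of 7.07. Replicate 1 was the brightest in both groups and the groups overlapped, but each ACE array was below its own control, by 0.14 to 0.38 log2. The mean fell by 0.24 ± 0.04 log2, and it was below 0 under each alternative run, with -0.23 log2 over pairs 3 to 5. Without the replicate block it missed the threshold (limma p 0.556). Of 5 tested probes for other endothelial and pericyte markers 0 were past the threshold, with Pecam1 at 0.13, Kdr at -0.10 and Flt1 at -0.45 log2. The value of Flt1 came from control replicate 5 (9.22 log2, the other control arrays 3.15 to 4.52). That same value enters the mean of the list, which was highest on this array. The list's mean over 7 genes was 4.96 to 5.98 in control and 5.03 to 5.61 in ACE, Tek being well above background on 0 of 12 arrays. Their part in the Cdh5 result was not tested.

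Cdh24, a cadherin that binds catenins like the classical ones, rose in 6 of 6 pairs, from a median of 4.55 (4.25 to 5.18) to 4.76 (4.63 to 5.30), by 0.20 ± 0.05 log2 (adjusted limma p 0.18). The probe was well above background on 5 control and 5 ACE arrays, and the call was lost with the 75th percentile shift (0.0871 log2, limma p 0.399) and with trend and robust eBayes (limma p 0.0793). Cdh8, a cadherin of neural circuits, differed by -0.04 ± 0.05 log2. The pair of Cdh11 probes gave -0.03 and 0.29 log2, and neither passed. Cdh9 and Cdh19 were not tested, Cdh9 being well above background on 0 control and 2 ACE arrays.

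Of the type I classical cadherins, Cdh2 (N-cadherin, the main classical cadherin of neurons and glia) was at 10.48 to 11.04 in control and 10.47 to 11.12 in ACE, with a difference of -0.02 ± 0.03 log2 (limma p 0.532). Cdh4 (R-cadherin, listed on the array under its synonym Cdh4l) differed by -0.08 ± 0.05 log2 by A_64_P140736, past the unadjusted threshold with normexp alone (-0.110 log2, limma p 0.0352). Of the 6 probes 1 rose (16.7%, background 6.9%), that of Cdh3 (P-cadherin), by 0.38 ± 0.13 log2 from a median of 3.92 to 4.29 (adjusted limma p 0.232). It was well above background on 3 control and 3 ACE arrays, and its pairs ran from -0.04 to 0.85. The call was lost with the shift (0.247 log2, limma p 0.113) and without replicate 1, 4 or 6 (limma p 0.0517, 0.0552 and 0.0612).

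Cdh15 (M-cadherin, expressed by muscle precursors and cerebellar granule cells) had uneven pairs. The control arrays read 4.29, 5.26, 3.41, 2.09, 1.93 and 3.77 log2 for replicates 1 to 6, and the ACE arrays 3.41, 4.03, 3.52, 2.69, 3.17 and 2.09. The probe was well above background on 3 control and 2 ACE arrays, so that much of this is at or near background. Control replicates 1, 2 and 6, with high muscle markers, were above their ACE partners, and in pairs 3 to 5 the ACE array was the higher one. The mean was -0.31 ± 0.41 log2 over 6 pairs and 0.65 log2 over pairs 3 to 5, not past the threshold in either set (limma p 0.478 and 0.0671). With normexp it was -0.144 log2 and past it (limma p 0.0346). In the muscle list 3 of 13 tested probes fell (background 9.73%) and 0 rose, and its mean was lower in ACE in all 6 pairs (0 of 6 higher). The part of muscle RNA in the Cdh15 values was not tested.

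Among the other cadherins, Cdh23, a long cadherin best known from the tip links of hair cells, rose in 6 of 6 pairs. Its range was 6.04 to 6.60 (median 6.43) in control and 6.11 to 6.84 (median 6.63) in ACE, with a difference of 0.19 ± 0.04 log2 (limma p 0.00286, adjusted 0.148), which became 0.10 log2 and missed the threshold (limma p 0.127) with the 75th percentile shift. Cdh13, the GPI-anchored T-cadherin, differed by -0.0012 ± 0.04 log2 by A_64_P052791 and by -0.06 log2 by A_44_P561084, neither past the threshold. The one 1.5-fold mean change, that of Cdh16 (a kidney cadherin), came from 1 pair: its difference was -0.67 ± 0.65 log2 with -4.16 in pair 5, where the control array stood at 7.91, while 3 of 6 pairs were positive. Leaving that pair out gave 0.0266 log2, and the probe was well above background on 3 control and 4 ACE arrays.

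The contactins are GPI-anchored members of the immunoglobulin superfamily. Cntn1 (contactin-1, of the paranodal junction beside the node of Ranvier) fell and Cntn2 (TAG-1, which premigratory granule cells carry on their parallel fibres) rose, each in 6 of 6 pairs. Cntn1 was at 12.73 to 13.35 (median 12.94) in control and 12.61 to 13.21 (median 12.89) in ACE, and fell by 0.10 ± 0.03 log2 (limma p 0.0174, adjusted 0.216). Cntn2 went from a median of 8.26 (7.43 to 8.97) to 8.34 (7.65 to 8.99), a difference of 0.18 ± 0.06 log2 (limma p 0.016, adjusted 0.214). Its pair differences were 0.01 and 0.02 in pairs 1 and 3 and 0.35 and 0.33 in pairs 4 and 5. Cntn6 (NB-3, a Notch ligand of the cerebellum) differed by 0.04 ± 0.05 log2 by A_64_P004312 and by -0.15 log2 by A_64_P125700, neither past the threshold, and Cntn5 was not tested.

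Cntnap1 (Caspr), the membrane partner of contactin-1 at the paranode, rose by 0.20 ± 0.07 log2 in 5 of 6 pairs (limma p 0.0241, adjusted 0.238), from 6.40 to 7.15 (median 6.84) in control to 6.54 to 7.50 (median 7.0) in ACE. Pair 2 had the largest difference (0.48) and pair 3 was at -0.01. The call was lost with the shift (0.12 log2, limma p 0.127) and without replicate 4 or 5 (limma p 0.0593 and 0.0624). Cntnap4 differed by 0.05 ± 0.11 log2, and the 4 probes of Cntnap5a, Cntnap5b and Cntnap5c were not tested.

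The neurexins, presynaptic organisers, gave 1 rise and 1 fall among 7 probes (14.3% each, background 6.9% and 9.73%). All 3 Nrxn2 probes were positive and 1 passed, at 0.08 ± 0.03 log2 (limma p 0.0467), but it missed the threshold when any 1 of replicates 1, 2, 4, 5 and 6 was left out. Nrxn3 fell by one probe (A_64_P084817, chromosome 6, 113877206 to 113877265 in rn4), from a median of 8.95 (8.50 to 10.06) to 8.78 (8.36 to 9.82). It fell by 0.16 ± 0.04 log2, in 6 of 6 pairs (limma p 0.00372, adjusted 0.156). The probe A_43_P12942 lies downstream of it (chromosome 6, 113905287 to 113905346) and gave 0.09 ± 0.05 log2, and A_64_P080530 gave 0.07 log2.

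The neuroligins, their postsynaptic partners, included the only gene with probes past the threshold both ways. For Nlgn2, the neuroligin of inhibitory synapses, the probe A_64_P030188 ran from 12.01 to 13.40 (median 12.17) in control and 11.76 to 13.48 (median 11.93) in ACE and fell by 0.19 ± 0.06 log2 (limma p 0.015, adjusted 0.21), lower in 5 of 6 pairs. The probe A_43_P13011 ran from 5.59 to 6.07 (median 5.94) and 5.86 to 6.34 (median 6.14) and rose by 0.27 ± 0.06 log2 in 6 of 6 pairs (limma p 0.00394, adjusted 0.157). Both lie on the minus strand of chromosome 10 (rn4), at 56647764 to 56647823 and 56646693 to 56646752, that of the rising probe being farther along the transcript. No direction is therefore given for Nlgn2 as a gene.

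Nlgn1, the neuroligin of excitatory synapses, fell by 0.06 ± 0.03 log2 in 6 of 6 pairs (limma p 0.0454, adjusted 0.291), from 6.94 to 7.83 (median 7.51) to 6.81 to 7.73 (median 7.47). This fall missed the threshold when any replicate but 2 was left out. Nlgn3 differed by 0.05 ± 0.06 log2. Of the LRRTMs, 1 of 5 probes rose: Lrrtm4, which binds heparan sulfate proteoglycans as well as neurexins, gave 0.12 ± 0.04 log2 by one probe (adjusted limma p 0.231) and -0.11 ± 0.05 by the other. The rise was lost with the shift (0.0584 log2, limma p 0.252) and without replicate 2 or 6 (limma p 0.0619 and 0.0633). Lrrtm2 differed by 0.11 ± 0.07 log2. More generally, 19 member genes had several tested probes, and in 10 of them the probes had both signs.

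**Figure D4:**
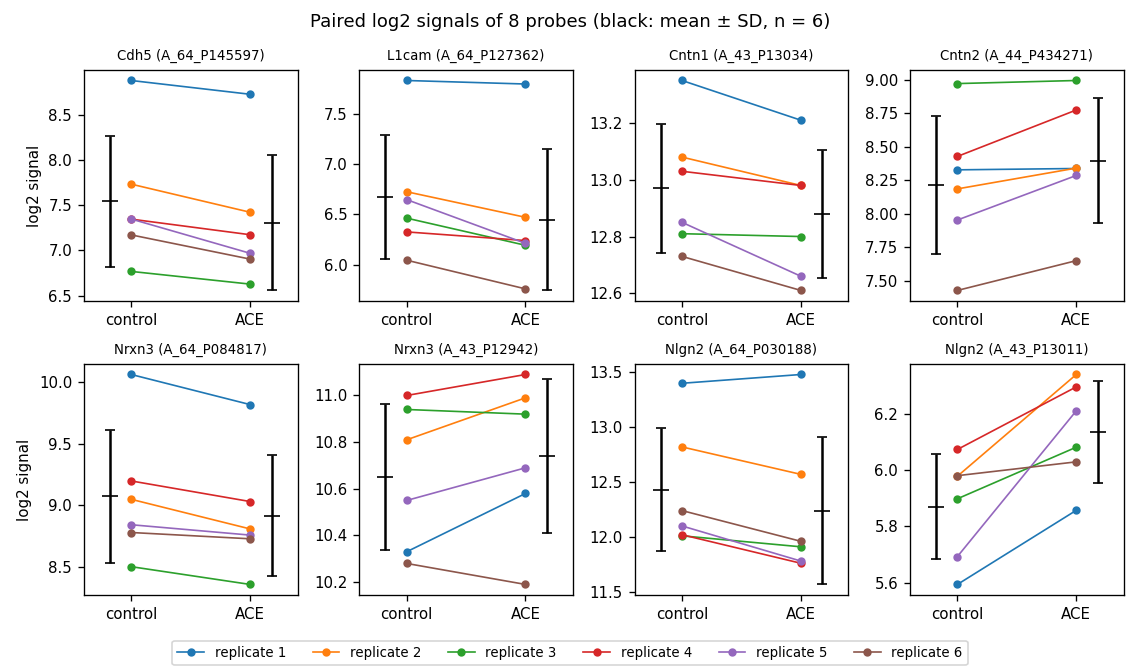
Log2 signal of 8 probes on the control and ACE array of each replicate, joined by a line per pair, with the mean ± SD (n = 6) in black. Every line of Cdh5, L1cam, Cntn1 and Nrxn3 A_64_P084817 falls and every line of Cntn2 and Nlgn2 A_43_P13011 rises, while the range over the replicates of a group is wider than the mean difference for each of the 8 probes.

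In the L1 family, L1cam, an axonal adhesion protein of growing and bundling neurites, fell. Its control arrays ran from 6.04 to 7.83 (median 6.55) and its ACE arrays from 5.76 to 7.79 (median 6.23). Replicate 1 stood above the rest in both groups, all 6 pairs were lower in ACE, by 0.03 to 0.43, and the mean fell by 0.23 ± 0.06 log2, or 1.17-fold (limma p 0.00566, adjusted 0.172). Nfasc (neurofascin, which gathers sodium channels at the axon initial segment and node) had 1 of 3 probes past the threshold, at 0.15 ± 0.05 log2, against -0.01 ± 0.03 by A_44_P727294. Its probe A_64_P143629 gave 0.07 ± 0.03 log2, higher in 6 of 6 pairs (limma p 0.059). For Nrcam, its relative at the node, 0 of 4 probes passed, and A_64_P044732 gave 0.03 ± 0.04 log2. The NCAMs also had 0 of 3, with 0.04 ± 0.04 log2 for Ncam1 and 0.01 ± 0.05 for Ncam2.

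The genes that work with these proteins were compared in the same way, as a list of 56 genes (74 tested probes) of catenins, giant cadherins, nectin-like molecules, Slitrk and Flrt proteins, latrophilins, teneurins, receptor phosphatases, cerebellins, ankyrins and scaffolds. Of these, 6 probes rose and 2 fell, or 10.8% against the background of 16.6%. Dlg4 (PSD-95, the scaffold that binds the tail of neuroligins) rose by 0.33 ± 0.07 log2 and Cbln1 (a synapse organiser that granule cells release and neurexins bind) by 0.28 ± 0.09 log2, each in 6 of 6 pairs with adjusted limma p of 0.156 and 0.228. Shank1, a scaffold of the postsynaptic density, fell by 0.16 ± 0.04 log2 in 6 of 6 pairs (adjusted limma p 0.181). Tenm2, Cadm3, Cadm4 and the catenin Ctnna3 rose by 0.30, 0.23, 0.21 and 0.15 log2, each in 5 of 6 pairs. No probe for Ctnnb1 or the other 5 catenins was past the threshold.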

How the data were processed

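Total RNA of 6 control and 6 ACE cultures was hybridised to 1-colour 60-base oligonucleotide arrays. The authors deposited the intensity of each spot, background-subtracted by Agilent Feature Extraction (11.0.1.1 for replicate 1 and 11.5.1.1 for the rest, per the file headers), and a table of log2 values, quantile normalised and centred by the authors, used as an alternative. Control and outlier spots were left out. The log2 intensity was quantile normalised here, spots of a probe were averaged, and testing required a signal over the array's 20th percentile on 7 or more of the 12 arrays and 4 complete pairs. The 75th percentile of the intensity ran from 1803 to 4384, and the number of arrays limits the precision.

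CvA was tested with limma 3.58.1 (R 4.3.3, two-sided) with replicate as a block, Benjamini-Hochberg adjusted over 23796 probes, and with the exact two-sided signed-rank test (smallest p 0.03125 for 6 pairs). The script was tested on simulated data. Same-numbered arrays deviated together (r of 0.449 to 0.912, against -0.439 to 0.390 for other numbers). They also shared a slide and a scan batch, so these correlations cannot tell litter from slide or scan. The study's methods derive the pairing from a shared litter. Each slide held 1 pair with the control at place 1 and ACE at place 3, so place and exposure cannot be told apart. Alternatives covered scaling, background, filters, outlier spots, the block, eBayes settings, the scan batch and leaving out each pair.

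The members and lists were chosen with earlier results of these data known. Probes named singly had the same direction in every pair with an unadjusted limma p under 0.05 (up to 12 a direction), a 1.5-fold mean change or the lowest p of their family, or belonged to a panel of well-known genes. The 7 gamma probes, Pcdhb2, Pcdhb18, Nfasc and others past the threshold were also named after their values were seen. Symbols are those of the array, 96 of 99 of which matched RefSeq (GRCr8). The sequences of probes come from the deposited files and promoters from RefSeq. Gene models of the rn4 assembly were not used here. Some single-gene results are not reported here. Figures were drawn with matplotlib 3.10.9.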

Additional observations from a re-analysis of the deposited data

Results flagged for a closer look

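In 6 of the 78 groups of 6 arrays examined (the 2 groups of each of the 39 named probes), 1 array lay far from the other 5 by Dixon's 95% criterion, which chance alone does in about 1 of 20 groups. Control replicate 3 stood above the rest for Pcdhgb7 (6.08 log2, the others 4.99 to 5.34) and for Pcdh10 (11.88, the others 11.18 to 11.37). ACE replicate 3 was likewise high for Pcdh10 (11.88, the others 11.33 to 11.53) and for Pcdhgb8 (5.85, the others 4.88 to 5.18). ACE replicate 1 was high for L1cam (7.80, the others 5.76 to 6.47) and low for Nlgn1 (6.81, the others 7.39 to 7.73). In each of these cases the partner array of the same replicate was the outermost of its own group on the same side, and replicate 1 was the pair extracted with the older software version. Pairs 1, 2 and 3 were each scanned in a batch of their own and pairs 4 to 6 together, with 1 slide per pair. Slide, scan batch and litter therefore go together for replicates 1 and 3 and cannot be told apart. The part of the software in these values was not tested.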

How the results depend on the processing

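The count at the adjusted threshold was 0 under every alternative tried. The 27 members at an unadjusted limma p under 0.05 became 14 with the 75th percentile shift, 2 without the replicate block (81 of all probes, 0.34%) and 8 over pairs 3 to 5 (an alternative chosen after seeing the data), 20 with trend and robust eBayes (17.7%, as for all probes), and 20 to 34 when a replicate pair was left out (17.7% to 30.1%, all probes 11.8% to 17.5%). The 15 members with a signed-rank p under 0.05 (13.3%, all probes 11.6%) became 7 with the shift (6.19%, all probes 12.3%) and 27 with the normal approximation (23.9%, all probes 19.3%), which also passes probes with a pair going the other way. With fewer than 6 pairs that test cannot pass 0.05, and the fits that change only the model do not alter it, so neither is counted here. The median over member genes was reversed by the shift (-0.025 log2) and ranged from 0.022 to 0.039 with a pair left out. The partner list had 0 calls without the block and 4 to 9 with a pair left out (4 without replicate 4 and 5 without replicate 2). The 7 calls among gamma variable-exon probes became 0 with the shift, 0 without the block, 4 with trend and robust eBayes, 4 over the 3 pairs of 1 scan batch, 1 over pairs 3 to 5 and 4 to 9 with a pair left out, and their median stayed between 0.062 and 0.197 log2. Of 662 values of the 39 named probes under alternatives, 95 lost the unadjusted threshold, 5 newly passed it and 23 changed sign, 1 of them for a probe past the threshold (Pcdhb20, -0.012 with the shift) and 22 for probes that were not. With the shift the sign also changed for Cdh13 (0.00669), Nlgn3 (-0.049) and Ncam2 (-0.0203), with normexp for Ncam2 (-0.00443), and with the deposited log2 values for Cdh13 (0.0128) and Nfasc (0.00292). Over pairs 3 to 5 it changed for Cdh15 (0.652), Cdh13 (0.0127), Nlgn3 (-0.0618) and Ncam2 (-0.0351), and over the scan batch for Cdh15 (0.056) and Lrrtm2 (-0.00914). With a pair left out, Cdh13 ranged from -0.0207 to 0.0333, Cdh16 from -0.921 to 0.0266, Cntn6 from -0.000785 to 0.0758, Nfasc from -0.0272 to 0.00664 and Ncam2 from -0.0175 to 0.0319. The 5 new calls were Cdh15 and Cdh4l with normexp, Nrxn3 A_43_P12942 without replicate 6, Nlgn3 without replicate 3 and Lrrtm2 without replicate 5. The causes were not tested. Among the named probes, those of Pcdhga10, Cdh3, Cdh8, Cdh15, Cdh16 and Cdh24 were not well above background on all 12 arrays, which limits their values.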

Other observations

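Most member probes that were not tested were dim, and none (0 of 13) was well above background on more than 5 of the 12 arrays. Cntn3 A_43_P12024 was tested (-0.21 ± 0.33 log2, with -2.05 in pair 6 and 4 of 6 pairs positive), while the other probe of that gene and that of Cntnap5b were well above background on 0 of 12 arrays. Cdh17, a cadherin of intestinal epithelium, had the largest positive mean of the 113 tested probes, 0.48 ± 0.34 log2, with 2.11 in pair 5 and -0.72 in pair 1 (limma p 0.205, adjusted 0.503).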
